A study of Mus musculus with 6 samples.

Results

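The Ikaros and BCL11 zinc-finger families comprised 7 genes: Ikzf1 to Ikzf5, which encode Ikaros, Helios, Aiolos, Eos and Pegasus, and Bcl11a and Bcl11b. Their chromatin was examined through the regions with a listed change in accessibility between WT and dKO cells. A region was taken when it overlapped the gene body, as annotated in GENCODE release M21, or the 100 kb to either side of it. This gave 21 of the 10016 listed regions, with 12 at the Ikaros family and 9 at the BCL11 family. They were chosen by position alone, and 6 of the 7 genes had at least 1 region. Over all 21728 protein-coding genes, 63.5% had a listed region in such a window.

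Accessibility was measured by ATAC-seq, in which the Tn5 transposase cuts open DNA, so that the read number over a region follows how open it is. The cells were mouse fetal liver cells immortalised by retroviral transfer of the fusion oncogene MLL-ENL and grown in IL-3. All groups carried MLL-ENL, and there were 6 libraries in 3 groups of 2. WT cells came from mice with floxed Cebpa and Cebpb and kept both genes, whose products C/EBPα and C/EBPβ drive myeloid differentiation, and no vector is named for them. The dKO cells had lost both genes through TAT-Cre, a cell-permeable recombinase, and carried exogenous GFP. They descended from rare clones that survived the deletion. The study reports that all these clones strongly expressed C/EBPε, another member of the C/EBP family, so the dKO cells were not without C/EBP proteins. The labels do not say which clone each library came from, so genotype, vector and clone cannot be told apart in any difference given here. The third group, dKO cells with the rat C/EBPβ isoform LAP*, was not analysed here.

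The authors' deposited table gave 1 group mean of normalised reads per region for WT and 1 for dKO, on the log2 scale, and no value per library. These group means are called levels. Differences between them are called changes and are dKO minus WT, also in log2 units. Every listed region had passed the authors' corrected P-value of 0.05, while no spread between replicates could be computed. Fold differences are therefore given with 95% intervals that cover counting error only. They rest on read numbers estimated from the steps of the low values, where -0.15 is the level of 1 read per library. The deletion was visible in the table. A region over Cebpa was at 9.99 in WT and, with the lowest level listed, at -0.15 in dKO. The level at the Cebpb promoter was 8.60 in WT and 3.37 in dKO. A second region at Cebpb was at 7.38 in WT and also at -0.15 in dKO. At a deleted locus such values include the loss of the DNA itself. Markers of the cell type could not be checked, since only changed regions were listed.

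Ikaros-family proteins bind DNA through zinc fingers near the N-terminus and pair with each other through zinc fingers near the C-terminus. They recruit chromatin remodelling and deacetylase complexes such as NuRD and are known above all as regulators of lymphoid development. BCL11A and BCL11B are zinc-finger repressors that also recruit corepressors. BCL11A is required for B-cell development and silences embryonic and fetal globin genes, and BCL11B directs commitment to the T-cell lineage.

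The central 200 bp of 8 regions are printed because the account turns on them: the only region of Ikzf2, 2 of the 3 Ikzf1 regions with RUNX motifs (the nearer upstream one and the one with an adjacent pair), the region closest to a start site of its own gene, 3 of the 4 Bcl11a regions with C/EBP motifs, and the Bcl11b region with such a motif. Sequences are from the plus strand of GRCm38.p6, whose chromosomes are those of mm10, written 5′ to 3′. Capitals mark matches on either strand to the motifs defined with the motif counts.
Ikzf2 downstream, higher in dKO, chr1:69496180-69496379: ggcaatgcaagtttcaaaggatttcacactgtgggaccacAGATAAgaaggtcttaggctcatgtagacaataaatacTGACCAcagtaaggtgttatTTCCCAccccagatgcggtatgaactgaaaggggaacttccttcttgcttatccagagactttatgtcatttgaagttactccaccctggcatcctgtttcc
Ikzf1 upstream, higher in dKO, chr11:11664802-11665001: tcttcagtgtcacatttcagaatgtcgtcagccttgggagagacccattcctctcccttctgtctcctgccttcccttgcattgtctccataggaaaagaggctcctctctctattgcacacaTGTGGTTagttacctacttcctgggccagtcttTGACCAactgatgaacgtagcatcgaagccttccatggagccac
Ikzf1 intron 7, higher in dKO, chr11:11766212-11766411: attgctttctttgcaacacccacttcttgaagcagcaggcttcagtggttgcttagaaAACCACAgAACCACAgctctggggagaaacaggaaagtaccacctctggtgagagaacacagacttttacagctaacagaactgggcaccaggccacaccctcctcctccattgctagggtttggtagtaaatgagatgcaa
Ikzf4 next to the start site, lower in dKO, chr10:128646466-128646665: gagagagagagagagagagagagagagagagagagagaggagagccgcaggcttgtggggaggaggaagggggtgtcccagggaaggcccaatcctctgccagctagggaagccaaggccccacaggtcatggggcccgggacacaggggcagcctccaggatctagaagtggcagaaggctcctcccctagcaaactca
Bcl11a intron 2, lower in dKO, chr11:24121675-24121874: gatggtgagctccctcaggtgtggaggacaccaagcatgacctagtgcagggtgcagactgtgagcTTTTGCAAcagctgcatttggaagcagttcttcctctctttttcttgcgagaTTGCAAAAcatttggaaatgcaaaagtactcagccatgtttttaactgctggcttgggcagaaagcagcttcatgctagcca
Bcl11a intron 2, lower in dKO, chr11:24132582-24132781: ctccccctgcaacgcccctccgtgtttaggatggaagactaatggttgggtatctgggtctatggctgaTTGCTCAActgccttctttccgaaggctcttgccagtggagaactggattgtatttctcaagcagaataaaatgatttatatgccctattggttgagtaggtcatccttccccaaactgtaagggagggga
Bcl11a intron 2, lower in dKO, chr11:24135514-24135713: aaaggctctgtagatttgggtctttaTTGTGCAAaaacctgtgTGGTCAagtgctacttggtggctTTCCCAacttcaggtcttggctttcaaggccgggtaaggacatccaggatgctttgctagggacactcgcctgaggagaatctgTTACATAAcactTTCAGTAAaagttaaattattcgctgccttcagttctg
Bcl11b upstream, lower in dKO, chr12:108103379-108103578: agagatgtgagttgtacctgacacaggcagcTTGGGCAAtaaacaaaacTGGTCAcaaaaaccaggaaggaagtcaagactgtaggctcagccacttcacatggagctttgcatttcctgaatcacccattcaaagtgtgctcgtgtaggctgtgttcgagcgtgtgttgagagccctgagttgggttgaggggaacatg

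The counts by direction differed between the families. At the Ikaros family, 10 of 12 regions were higher in dKO (83.3%), with a median change of 1.02. After centring on the median change of all listed regions, 0.98, 6 of the 12 were higher and 6 were lower. Only changed regions are listed, so this median does not mark the absence of change, and centring does not test whether an increase holds. At the BCL11 family, 0 of 9 regions were higher and 9 were lower, with a median change of -2.50, and this count was the same after centring. Over all listed regions, 60.3% were higher and 39.7% were lower in dKO, and centring, which divides such a table evenly by construction, left 5005 higher and 4972 lower. The Ikaros family thus lay near the median of the table, while the BCL11 regions went against its majority. The lower regions of the whole table had a median change of -1.85, which was less negative than the BCL11 median. The median WT level at the BCL11 family was 4.76, below the 5.93 of all lower regions, and the median dKO level was 2.56 against 3.98. Regions of 1 gene are not independent, and 7 of the 9 BCL11 regions were at Bcl11a.

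**Figure D1:**
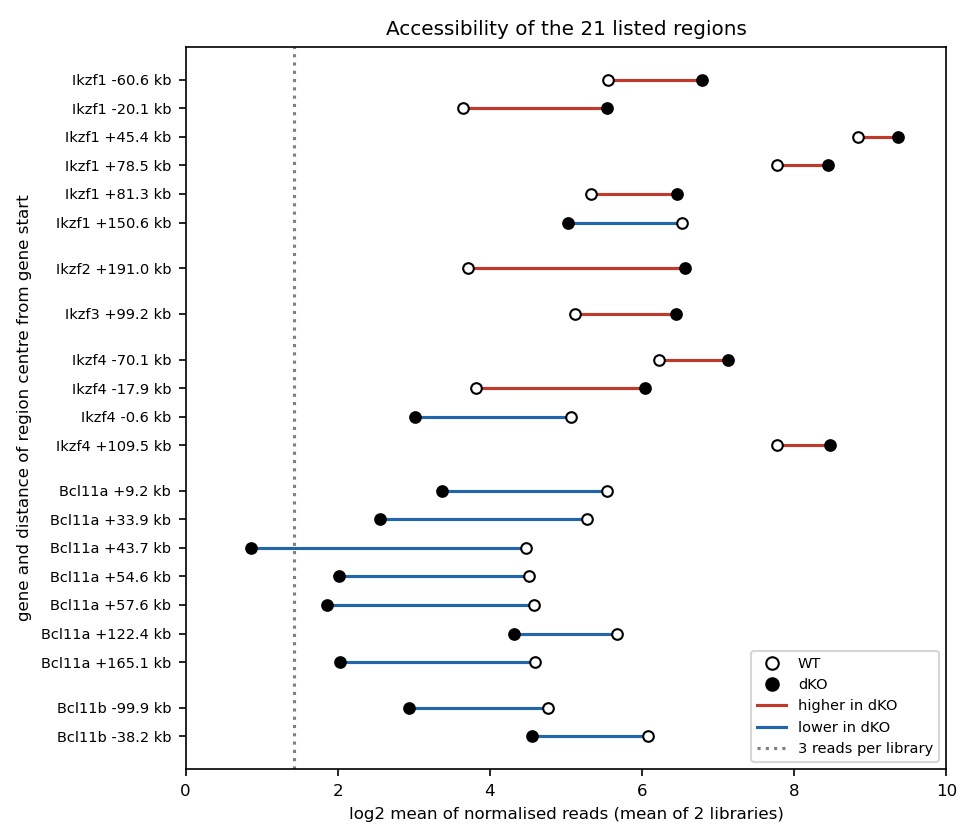
Log2 mean of normalised reads (x axis) in WT (open circles) and dKO (filled circles) at each of the 21 regions, ordered by gene and by distance of the region centre from the gene start in kb (y axis); each circle is a mean of 2 libraries, with no spread available, and the dotted line is the level of 3 reads per library. Lines are red where dKO was higher and blue where it was lower: 10 of the 12 Ikaros-family lines are red and all 9 BCL11-family lines are blue.

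At Ikzf1 (chromosome 11, 11685003 to 11772926, plus strand), 5 regions were higher in dKO and 1 was lower. Ikaros, its product, specifies lymphoid cells and is a suppressor of lymphoid leukaemia. Of the higher regions, 2 lay upstream of the gene. One at chr11:11664750-11665052, 19951 bp upstream, had a level of 3.65 in WT and 5.54 in dKO, a 3.71-fold higher level (2.40 to 5.80). It was the only Ikzf1 region whose nearest start site was that of Ikzf1, and it also overlapped the transcript Gm11999. The other, at chr11:11624111-11624654, lay 60349 bp upstream and nearer to the start of 4930512M02Rik, and its level was 5.55 in WT and 6.79 in dKO (2.36-fold, 1.87 to 3.0).

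Within the Ikzf1 body, 3 intronic regions were higher in dKO. The intron 3 region at chr11:11730043-11730842 had the highest levels of the 21, with 8.84 in WT and 9.36 in dKO (1.43-fold, 1.32 to 1.55). It was thus widely open in both groups. Of a pair in intron 7, separated by 2370 bp, the region at chr11:11763131-11763788 went from 7.78 in WT to 8.45 in dKO (1.59-fold, 1.42 to 1.78). Its neighbour at chr11:11766159-11766464 was at 5.33 in WT and 6.46 in dKO (2.19-fold, 1.70 to 2.85). The changes of the intron 3 region and of the first intron 7 region, 0.52 and 0.67, were below the median change of 0.98, so that centring the table on that median turned them to -0.46 and -0.31. The region of Ikzf1 that was lower in dKO stood apart in position. It lay 62493 bp downstream at chr11:11835419-11835764, inside Ddc, which encodes aromatic amino acid decarboxylase, and 516 bp from a Ddc start site. Its level was 6.53 in WT and 5.02 in dKO (2.85-fold lower, 2.17 to 3.78).

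Ikzf2 (chromosome 1, 69531214 to 69687245, minus strand) had 1 region, higher in dKO, with the highest change value of the 21 at 2.86. Helios, the product of Ikzf2, is known from regulatory T cells and from stem and progenitor cells. The region, chr1:69496068-69496490, lay 34724 bp downstream of the gene and 2280 bp from the start of the long non-coding RNA Gm29113. Its level was 3.71 in WT and 6.57 in dKO, which is 13.1 normalised reads against 95.0, a 7.26-fold higher level (4.92 to 11.1). This interval overlaps those of the nearer upstream region of Ikzf1 and of the region 17579 bp upstream of Ikzf4, so that no order among these increases can be given. The window held 0 other protein-coding genes, and 0 other listed regions lay within 1 Mb of the gene body. This was therefore an isolated change in a stretch of chromosome with no other listed region.

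Ikzf3 (chromosome 11, 98464902 to 98546031, minus strand) also had 1 region, higher in dKO, but in a crowded window with 12 other protein-coding genes. Aiolos, its product, acts in B-cell maturation. The region at chr11:98446507-98447085 was 17817 bp downstream and covered a start site of Grb7, which encodes a signalling adaptor. It was the only one of the 21 over an annotated start site of any gene. Its level was 5.12 in WT and 6.44 in dKO (2.50-fold, 1.91 to 3.31).

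Ikzf4 (chromosome 10, 128630843 to 128645991, minus strand) had 4 regions, of which 3 were higher and 1 was lower in dKO. Eos, the product, is a corepressor-binding factor of regulatory T cells. The lower region, chr10:128646439-128646691, was the closest of the 21 to a start site of its own member gene, at 448 bp upstream. Its level was 5.06 in WT and 3.02 in dKO (4.11-fold lower, 2.43 to 7.31), on about 74 and 18 reads. It overlapped the transcript Gm26876, was 47.0% repeat-masked and opened with a GA repeat, and held 0 matches to the 7 motifs searched. On its upstream side, 17579 bp from Ikzf4, the region at chr10:128663570-128664199 changed in the opposite direction, from 3.82 in WT to 6.04 in dKO (4.66-fold higher, 3.18 to 7.18). This region was 79.5% repeat-masked and lay in the long non-coding RNA Gm49782.

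The outer regions of the Ikzf4 window were high in both groups and changed little. One 69583 bp upstream, in the melanosome gene Pmel, had levels of 6.22 in WT and 7.13 in dKO (1.88-fold, 1.56 to 2.29). Another 93970 bp downstream, over Gm29585, had levels of 7.77 and 8.47 (1.62-fold, 1.45 to 1.82). Centring on the median change turned them to -0.07 and -0.28. The window held 10 other protein-coding genes, so a region in it need not belong to Ikzf4. Ikzf5 (chromosome 7, 131388652 to 131410521, minus strand), which encodes Pegasus, a factor of platelet formation, had 0 listed regions and therefore no listed change. The closest listed region lay 124000 bp away and was lower in dKO by 1.24 on the log2 scale.

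**Figure D2:**
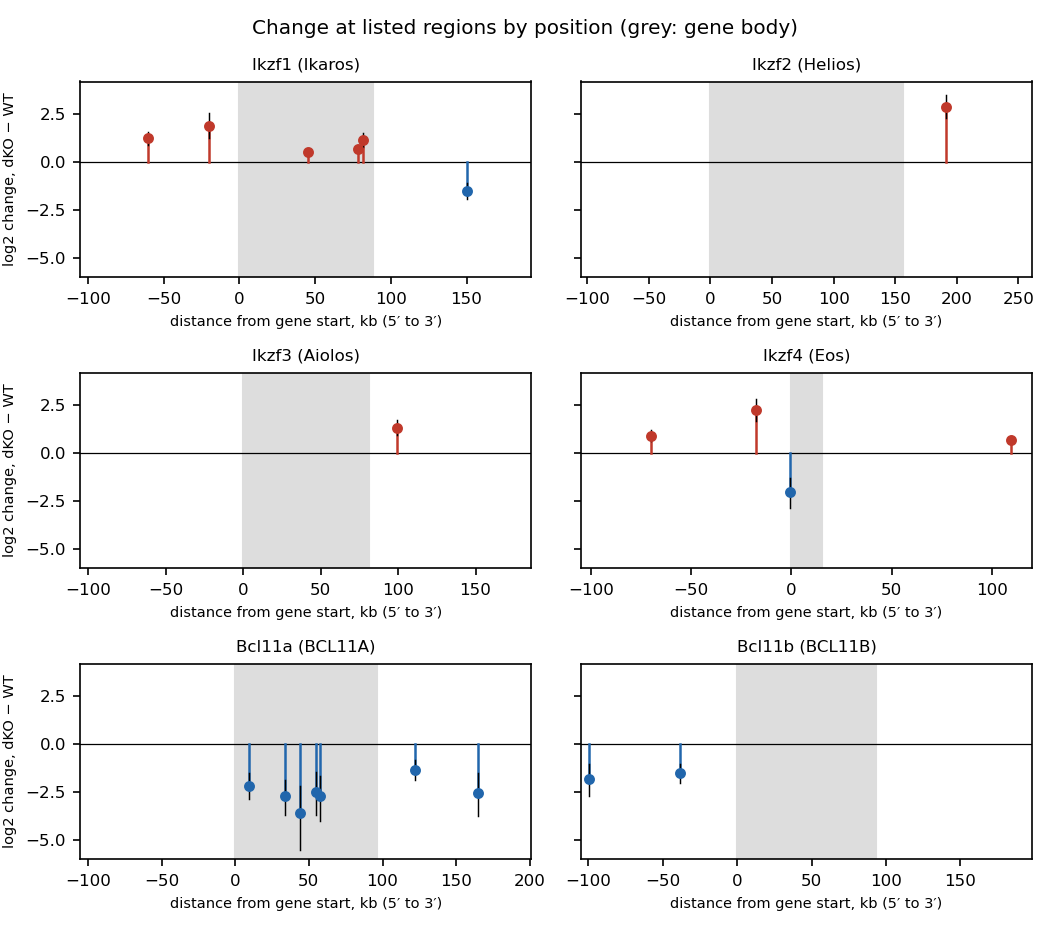
Log2 change, dKO minus WT (y axis), against the distance of each region centre from the gene start in kb, read 5′ to 3′ along the gene (x axis), for the 6 genes with listed regions; grey bands are gene bodies and thin black lines are 95% counting intervals of the difference of the 2 group means. The 5 lower Bcl11a regions inside the gene cluster within 48.7 kb, and the 2 Bcl11b regions both lie upstream.

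Bcl11a (chromosome 11, 24078056 to 24174123, plus strand) had 7 regions, the most of any member, and all 7 were lower in dKO, with a median change of -2.56. This was 23.6 regions per Mb of window against 3.80 over the genome. The density was similar at Ikzf1 (20.8) and Ikzf4 (18.6), and lower at Bcl11b (6.82), Ikzf3 (3.56) and Ikzf2 (2.81). Of the 21728 protein-coding genes, 415 had at least 7 listed regions in such a window. All regions were lower at 38 of these genes, and all were higher at 159. These windows overlap, so neighbouring genes share regions and are not independent. Outside the window but within 1 Mb of the gene body, there were 3 higher and 3 lower regions, so the uniform direction did not extend to the surroundings.

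The 5 regions inside Bcl11a were all in intron 2 and had low levels in dKO. The first, chr11:24087061-24087510, stood at 5.54 in WT and 3.37 in dKO (4.50-fold lower, 2.83 to 7.38). At chr11:24111777-24112171, which the transcript Gm12064 also overlaps, the levels were 5.28 and 2.56 (6.59-fold lower, 3.67 to 12.9). The middle region of the 5 was nearly closed in dKO. At chr11:24121625-24121924, the level was 4.47 in WT and 0.86 in dKO (12.2-fold lower, 4.49 to 46.7). Its dKO value stood on about 4 reads in all and lay under the floor of 3 reads per library, a level of 1.43, so that the size of this fold is poorly determined. The last 2 intronic regions were neighbours, separated by 2591 bp. At chr11:24132513-24132850 the levels were 4.51 in WT and 2.01 in dKO (5.66-fold lower, 2.76 to 13.1). At chr11:24135442-24135785 they were 4.58 and 1.86 (6.59-fold lower, 3.13 to 16.1).

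In WT, the intronic Bcl11a regions were modest in level, between 4.47 and 5.54, and in dKO they were between 0.86 and 3.37. The counting intervals of their folds overlapped each other, so that no order among the 5 can be given. Downstream of the gene, the region at chr11:24200206-24200694, 26083 bp away in Gm12065, was at 5.67 in WT and 4.31 in dKO (2.57-fold lower, 1.80 to 3.73). The region at chr11:24242949-24243289, 68826 bp downstream, had levels of 4.59 and 2.03 (5.90-fold lower, 2.88 to 13.6). The window held 1 other protein-coding gene.

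Bcl11b (chromosome 12, 107910403 to 108003602, minus strand) had 2 regions, both upstream of the gene and both lower in dKO. The nearer, at chr12:108041614-108041961, lay 38012 bp upstream, with levels of 6.08 in WT and 4.55 in dKO (2.89-fold lower, 2.09 to 4.03). The farther, at chr12:108103349-108103607, lay 99747 bp upstream, at the edge of the window and 11340 bp from the start of Setd3, and its levels were 4.76 and 2.94 (3.53-fold lower, 2.03 to 6.45). The window held 0 other protein-coding genes. Outside the window but within 1 Mb of the gene body, 0 listed regions were higher and 11 were lower, so that the direction at Bcl11b was also that of its surroundings. At Ikzf4, by comparison, the surroundings held 12 higher and 5 lower regions, and at Ikzf1 they held 4 higher and 1 lower. The share of listed regions higher in dKO also varied by chromosome. It was 82.0% on chromosome 10, 66.7% on 1, 62.6% on 11 and 52.0% on 12, against 60.3% over all listed regions. The increases at Ikzf4 thus went with the majority direction of its chromosome.

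**Figure D3:**
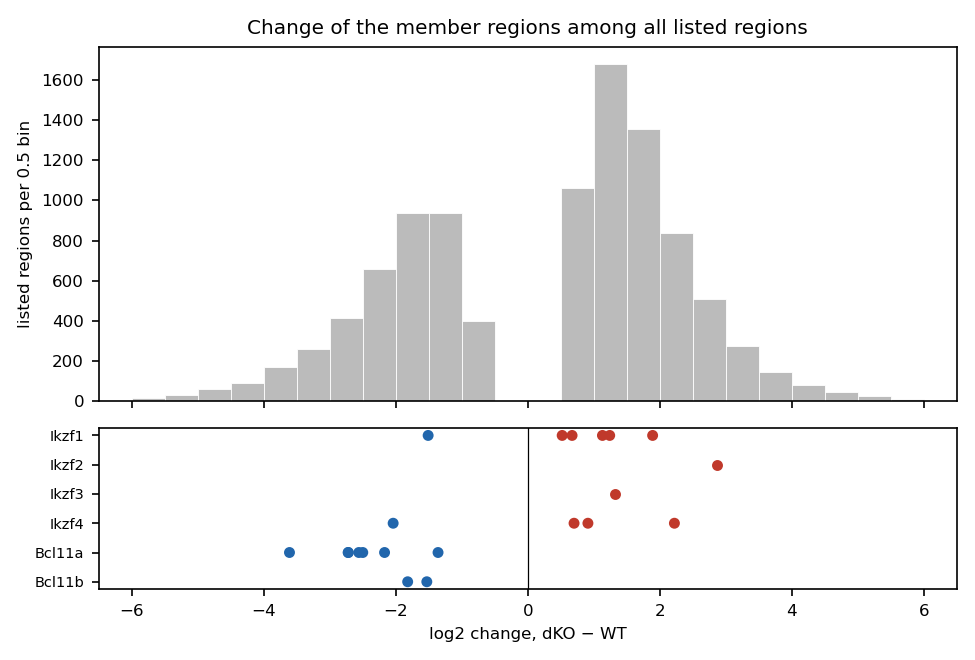
Histogram of the log2 change, dKO minus WT, of all 10016 listed regions in bins of 0.5 (upper panel, regions per bin) above the change of each member region by gene (lower panel, red higher and blue lower in dKO). The Bcl11a points lie between -3.61 and -1.36, with 2 regions superimposed at -2.72, and the Ikzf2 point at 2.86 is the highest.

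In size of change, 17 of the 21 regions differed at least 2-fold between the group means (81.0%), against 85.5% of all listed regions. The 4 smaller differences were all increases at the Ikaros family. Other properties of the regions were close to those of the table. The median width was 395 bp against 400 bp, the median GC content was 49.0% in both, and 4 regions lay within 1 kb of a start site (19.0%, against 19.1%). The Ikaros regions were wider at the median, with 561 bp against 344 bp for the BCL11 regions. None of the 21 covered a start site of a member gene, 8 lay inside a member gene and 13 outside, and 15 were nearest to a start site of another gene.

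Motifs were counted on both strands in the central 200 bp of each region. The letters searched for C/EBP were TTGCNNAA or TTACNNAA. AP-1, the factor formed by Fos and Jun proteins, was searched as TGACTCA, and the myeloid and B-cell factor PU.1 as GAGGAAGT. The RUNX motif was AACCACA and the GATA motif was AGATAA. For the members themselves, TGGGAA was the motif of Ikaros and TGACCA that of BCL11A. A match is a description of the letters and not of a bound site. C/EBP matches were in 6 of the 11 member regions that were lower in dKO (54.5%, 95% Wilson interval 28.0% to 78.7%) and in 0 of the 10 that were higher (upper bound 27.8%). Over all listed regions the shares were 40.8% of lower and 20.1% of higher regions, and 28.4% of all. The member shares differed in the same direction as those of the whole table, and their intervals include the table's shares. At Bcl11a, 4 of the 7 regions held 7 C/EBP matches. The intron 2 region at chr11:24121625-24121924 held 2 of them, TTTTGCAA and TTGCAAAA, and the region at chr11:24135442-24135785 held 3, TTGTGCAA, TTACATAA and TTCAGTAA. The other lower regions with a match were the far upstream one of Bcl11b, with TTGGGCAA, and the one in Ddc downstream of Ikzf1, with TTGAGCAA.

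**Figure D4:**
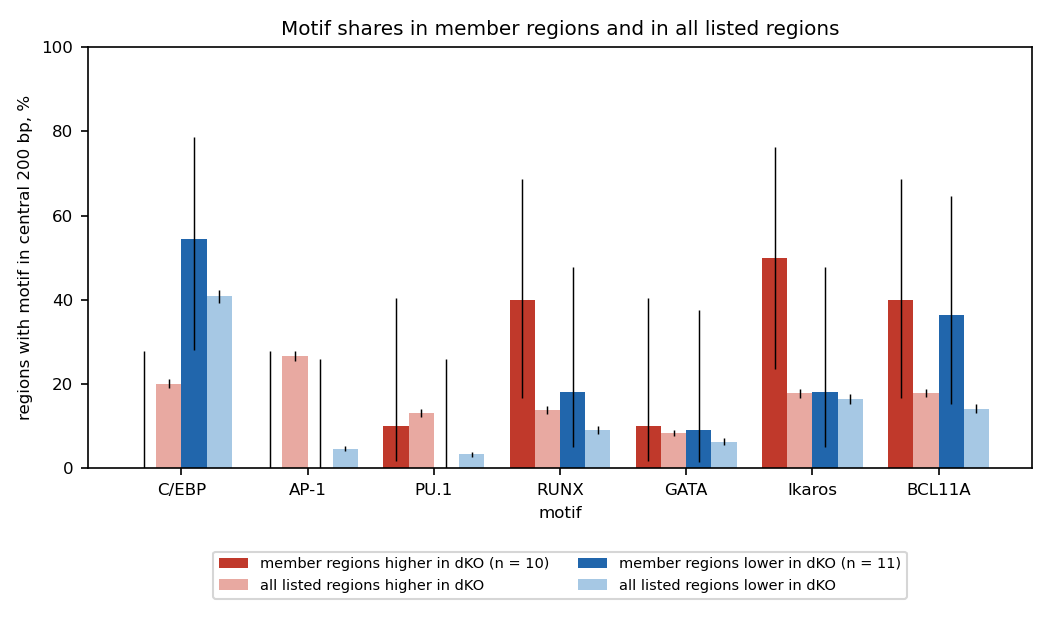
Percentage of regions with each motif in the central 200 bp (y axis) for member regions higher (red, n = 10) and lower (blue, n = 11) in dKO and for all listed regions of the same direction (pale bars); error bars are 95% Wilson intervals. C/EBP matches occur in 54.5% of lower and 0 of the higher member regions, no member region holds the AP-1 motif, and the member intervals are wide.

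RUNX matches were in 4 of the 10 higher member regions (40.0%, 16.8% to 68.7%), against 13.8% of all higher regions, and in 2 of the 11 lower ones (18.2%, 5.14% to 47.7%), against 9.04% of all lower regions. RUNX factors are regulators of blood stem cells and of the lymphoid and myeloid lineages. The Ikzf1 intron 7 region printed above held 2 matches separated by 1 base, and both upstream Ikzf1 regions held 1. The AP-1 letters TGACTCA were in 0 of the 21 regions (upper bound 15.5%), against 17.9% of all listed regions. By direction, they were in 0 of the 10 higher member regions (upper bound 27.8%), against 26.7% of all higher regions, and in 0 of the 11 lower ones (upper bound 25.9%), against 4.67% of all lower regions. Within each direction, the member interval includes the share of the table in these 200 bp. Over whole regions, the letters were again in 0 of the 10 higher member regions, against 36.1% of all higher regions. Of these 10 member regions, 5 were at Ikzf1 and 3 at Ikzf4. Regions of 1 gene are not independent, so no lack of the motif can be read from this count. A PU.1 match was in 1 of the 21 regions (4.76%), in Ikzf1 intron 7, against 9.22% of all listed regions. GATA matches were in 2 (9.52%), against 7.52%. Over whole regions, PU.1 matches were in 14.3% of the member regions, against 13.2% of all listed regions, and GATA matches in 28.6%, against 17.2%.

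The motifs of Ikaros and BCL11A themselves were counted in the same windows. The Ikaros letters were in 7 of the 21 regions (33.3%, 17.2% to 54.6%), against 17.2% of all listed regions, and in 5 of the 12 at the Ikaros family. The BCL11A letters were in 8 of the 21 (38.1%, 20.8% to 59.1%), against 16.5% of all listed regions. Both motifs were in 4 regions, namely those of Ikzf2 and Ikzf3, which were higher in dKO, and the Bcl11a regions at chr11:24135442-24135785 and chr11:24242949-24243289, which were lower. Both motifs have 6 letters and occur often by sequence alone, and occupancy of these regions was not measured.

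The other genes of the pathway were taken from lists of 20 corepressor partners and 15 target genes. Within 100 kb, 15 partner genes (75.0%, against 63.5% of all protein-coding genes) had 33 regions, of which 19 were higher and 14 were lower in dKO (57.6% higher, median change 1.03), close to the 60.3% of the table. Within 10 kb, 6 of the 20 partner genes (30.0%, against 25% of all protein-coding genes) had 9 regions. Chd4 and Chd3, the ATPases of NuRD, each had 1 lower region with a small change of -0.83 and -0.76. The level at Chd4 was 8.45 in WT and 7.62 in dKO, and at Chd3 it was 7.25 and 6.49. Mta3, a further NuRD subunit, had 3 regions that were between 2.04-fold and 4.41-fold higher in dKO, and Mbd2, which links NuRD to methylated DNA, had 2 with changes of 1.33 and 2.51. At Ctbp2, which encodes a corepressor that binds Ikaros-family proteins, the level was 5.03 in WT and 2.30 in dKO. Kdm1a, a histone demethylase gene, had 1 region with 5.86 in WT and 7.49 in dKO. The partners thus did not share a direction.

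Of the 15 target genes, 10 (66.7%, against 63.5% of all protein-coding genes) had 19 regions within 100 kb. Of these, 13 were higher and 6 were lower in dKO (68.4% higher, median change 1.49), against 60.3% and 0.98 over the table. Within 10 kb, 2 of the 15 had a region (13.3%, against 25% of all protein-coding genes). At Notch1, a receptor of T-cell commitment, the level was 4.73 in WT and 6.57 in dKO. At Mdm2, which encodes the ubiquitin ligase of p53, it was 4.18 and 6.37. Within 100 kb, Notch1 had 2 higher regions, and Mdm2 had 2 higher and 1 lower. Among the lymphoid genes, the interleukin receptor gene Il7r had 3 higher and 1 lower region in its window, and Dntt, which encodes terminal transferase, had 1 higher region. The neighbouring recombinase genes Rag1 and Rag2 shared 1 lower region, and Flt3, Igll1 and Vpreb1 had 0. Among the embryonic globin genes, Hba-x had 3 regions, all lower in dKO, and Hbb-bh1 and Hbb-y had 0. Hes1 and Cdkn1a had 2 higher regions each and Bcl2 had 1. Transcript levels of these genes were not analysed here.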

How the data were processed

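ATAC-seq libraries of WT and dKO cells, 2 per group, were compared; the dKO-LAP* libraries were not analysed here. Per the methods of the study and the submitters' processing notes, reads were preprocessed with PiGx, aligned to mm10 with Bowtie 2, peaks were called with MACS and groups were compared with DiffBind 2.14.0 at a corrected P-value of 0.05. Duplicate handling, the Tn5 offset and the normalisation step are not given in the sources used here. The 2 processed files were identical and gave 1 distinct table. The authors deposited log2 values, namely log2 means of normalised reads over all libraries, over WT and over dKO. Columns with the authors' fold change, p-value and false discovery rate were not used.

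Regions were assigned with Python 3.11.15, pandas 2.3.3, numpy 2.4.6, scipy 1.17.1 and pysam 0.24.0, using GENCODE M21 and the GRCm38.p6 assembly. Every listed region ended within the length of its chromosome in that assembly. The change is the dKO minus the WT log2 mean, with no test, since no value per library was given. Depth per library was not in the table. Among low values, not above 3 normalised reads, 96.3% of 267 WT values and 100.0% of 281 dKO values lay within 0.005 of steps of whole reads, against medians of 32.2% and 42.0% over the step sizes tried. Read numbers estimated from these steps gave exact binomial 95% intervals of each fold, and levels under 3 reads per library were marked as a floor. PCR copies are not independent molecules, so intervals cover counting error only. Scripts were tested on simulated regions with known overlaps and motifs. All regions of the members were named, and list genes with a region within 10 kb. The members and lists were chosen with earlier results of these data known. Alternatives changed the window, the assignment, the centring, the floor and the level or size of change required.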

Additional observations from a re-analysis of the deposited data

How the results depend on the processing

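No paired analysis was possible because the deposited table holds group means and no value per library. For the same reason the planned replicate block and leaving out each replicate were not run, and no value here carries a replicate error.

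The 21 regions and the 6 genes with a region depended on the window: the gene body alone held 8 regions at 2 genes, 10 kb to either side held 9 at 3 genes, and 6 regions were nearest to the start site of their own member gene. Within 50 kb, 15 regions at 6 genes remained, with 46.7% higher. The median change over the 21 regions was -1.36. It was -2.33 in gene bodies, -2.17 within 10 kb, -2.10 for regions nearest to their own start site and -2.34 after centring on 0.98. The share of regions higher in dKO was 47.6%. It was 16.7% for regions nearest to their own start site, and 71.4% for regions whose higher group mean was above the lower quartile of 5.39, which left 11 Ikaros-family and 3 BCL11-family regions and turned the median to 0.80. Without the regions of Bcl11a, an alternative chosen after the data were seen, the share was also 71.4% and the median also reversed to 0.80. The sign of the pooled median thus depends on which BCL11-family regions are kept. Centring reversed the 4 smallest increases, to -0.31 and -0.46 at Ikzf1 and to -0.28 and -0.07 at Ikzf4, and the floor of 3 reads per library reversed 0 of the 21. Within 10 kb, partner regions went from 33 to 9 and target regions from 19 to 2. Searching whole regions raised the Ikaros motif from 33.3% to 57.1% (all listed regions, 17.2% to 35.1%) and the BCL11A motif from 38.1% to 61.9% (16.5% to 28.8%). It placed C/EBP matches in 3 of the 10 higher member regions (30.0%, against 35.3% of all higher regions), and AP-1 matches in 0 of the 21. The RUNX share rose from 28.6% to 42.9% (all listed regions, 11.9% to 19.3%). That of GATA rose from 9.52% to 28.6% (7.52% to 17.2%) and that of PU.1 from 4.76% to 14.3% (9.22% to 13.2%).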
